A study of Mus musculus with 20 samples.

Results

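The 88 genes described here encode molecular chaperones and their partners. They are the rows of the expression tables whose symbols begin with Hsp, Dnaj, Cct or Pdia in the numbered families of heat shock proteins, J proteins, subunits of the chaperonin TRiC and disulfide isomerases, together with Tcp1, Calr, Canx, Ahsa1, Stip1, Xbp1 and Hsf1. They were chosen by symbol, with earlier results of these data known, from 16790 genes in all. By where the proteins work, 43 members are cytosolic, 20 belong to the ER, 9 to mitochondria, 2 are transcriptional regulators, and 14 fall elsewhere or are less well placed. All 88 had a row in the table of cultured cells and 83 in the table of tumor cells, since Dnajb7, Dnajc22, Dnajc6, Hspa12a and Hspb7 had none there. Cct6a had no row and was not analysed here.

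The cells were mouse macrophages from a study of B-MF, macrophages that arise from B cells in cancer. B-MF were grown from sorted BM B cells kept for a week in medium conditioned by 4T1.2 mammary carcinoma cells, and Mo-MF were grown from monocytes in the same medium, with 2 scRNA-seq libraries of each. The 4 tumor libraries, numbered 2 to 5 in the deposited table, held TAM, macrophages sorted out of 4T1.2 tumors, and their numbers could not be matched to single mice. ATAC-seq covered 12 libraries of BMBP, B-cell precursors of naïve mice, taken from BM and spleen and split by CSF1R into 4 groups of 3. Their labels call them macrophages. The sources name no gene deletion and no added stressor for any of the libraries used here. The study took its TAM from 4 different mice. For the other libraries the labels do not say whether those of a cell type came from separate mice, and p-values then measure the spread between these libraries.

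Chaperones bind proteins that are not yet folded, or have lost their fold, and keep them from clumping. In the cytosol, Hsp70 proteins with their J protein partners take up nascent or damaged chains, the Hsp90 proteins finish many kinases and receptors, and the TRiC ring folds actin and tubulin. A rise in damaged cytosolic protein activates HSF1, which binds heat shock elements and induces Hspa1a, Hspa1b, Hsph1, Dnajb1 and Hsp90aa1, whereas Hspa8 and Hsp90ab1 are the constitutive forms. In the ER, BiP (Hspa5) and GRP94 (Hsp90b1) hold secretory and membrane proteins, calreticulin and calnexin read their sugars, and disulfide isomerases arrange their cysteine bonds. A load of unfolded protein in the ER activates ATF6 and XBP1, which act through ER stress elements in the promoters of these genes, and PERK, which acts through ATF4 and CHOP (Ddit3).

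Stress elements in the promoters differed between the classes, and they are shown because the ER members that carry one are compared with the others below. Windows from 250 bases before to 50 bases after the RefSeq start (GRCm38.p6) were found for 73 of the 88 members and for 12067 measured genes in all. Hspa8, Hsp90aa1, Hsp90ab1 and Cct4 were among the members without a window. The ER stress element, CCAAT and CCACG with 9 free bases between them on either strand, was found in 6 of 18 ER promoters, in 0 of 36 cytosolic promoters and in 20 of 12067 promoters (0.166%). The 7 elements of those 6 genes follow, all within the 250 bases before the start, with the element in capitals and 5 bases on each side.
Hspa5, chr2:34772020-34772048, plus strand: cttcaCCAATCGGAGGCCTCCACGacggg
Hsp90b1, first element, chr10:86705633-86705661, minus strand: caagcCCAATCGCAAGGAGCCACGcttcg
Hsp90b1, second element, chr10:86705528-86705556, plus strand: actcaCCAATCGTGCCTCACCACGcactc
Calr, chr8:84847070-84847098, plus strand: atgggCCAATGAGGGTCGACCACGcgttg
Canx, chr11:50325795-50325823, minus strand: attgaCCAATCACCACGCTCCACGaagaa
Pdia6, chr12:17266486-17266514, plus strand: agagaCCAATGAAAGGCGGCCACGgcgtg
Dnajc3, chr14:118937822-118937850, plus strand: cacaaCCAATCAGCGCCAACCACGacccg
The 9 free bases differed from gene to gene, and Hsp90b1 held 1 element on each strand.

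The heat shock element was sought as GAANNTTC, which reads the same on both strands and so is counted once per place. It was found in 10 of 36 cytosolic promoters (27.8%), in 0 of 18 ER promoters and in 7.21% of all 12067 promoters. The longer form with a further unit, GAANNTTCNNGAA or TTCNNGAANNTTC, contains the short form and was found in 4 members, Dnajb6, Hsph1, Hspd1 and Hspe1, against 0.58% of all promoters. Elements of 9 members whose levels or differences are given below follow, again with the element in capitals.
Hspa1a, chr17:34972248-34972265, minus strand: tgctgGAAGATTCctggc
Hspa1b, chr17:34959330-34959347, minus strand: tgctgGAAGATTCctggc
Dnaja1, chr4:40722339-40722356, plus strand: ctctaGAAAATTCtacga
Cct2, chr10:117063405-117063422, minus strand: gtgaaGAAGTTTCtagca
Hspb1, first element, chr5:135887797-135887814, plus strand: caagaGAAGTTTCcagat
Hspb1, second element, chr5:135887817-135887834, plus strand: gggcaGAACCTTCctggc
Hsph1, chr5:149636283-149636305, minus strand: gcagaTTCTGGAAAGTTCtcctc
Dnajb6, chr5:29735847-29735869, plus strand: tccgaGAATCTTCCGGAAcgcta
Hspd1, chr1:55088054-55088081, minus strand: gggccTTCCGGAAGGTTCTAGAAcggac
Hspe1, chr1:55088054-55088081, plus strand: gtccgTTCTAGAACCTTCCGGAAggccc
The Hsph1 element lies after the start. Hspd1 and Hspe1, the mitochondrial chaperonin and its lid, lie head to head and share 1 stretch, printed on each strand. Hspa1a and Hspa1b encode nearly the same Hsp70 protein, and 296 of the 300 bases of their windows were identical. This identity of promoters cannot show how expression reads were split between the genes, since those reads came from the other end of the transcripts. The transcripts were not compared, and the separate levels of Hspa1a and Hspa1b are uncertain. The CCAAT box CCAAT, which the ER stress element contains, was in 46.6% of member promoters and 42.5% of all promoters, and the UPR element core TGACGTGG was in that of Dnajc25 alone among the members and in 1.0% of all. A match describes the letters in the window and not binding.

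For the 2 genes most used as readouts of the cytosolic and the ER responses, the 250 bases before the start are given whole, with the element in capitals.
Hspa1a, chr17:34972157-34972406, minus strand: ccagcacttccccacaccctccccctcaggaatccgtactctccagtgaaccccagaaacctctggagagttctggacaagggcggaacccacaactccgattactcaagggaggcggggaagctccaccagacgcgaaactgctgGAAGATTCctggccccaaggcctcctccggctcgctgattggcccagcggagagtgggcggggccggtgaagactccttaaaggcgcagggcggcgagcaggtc
Hspa5, chr2:34771840-34772089, plus strand: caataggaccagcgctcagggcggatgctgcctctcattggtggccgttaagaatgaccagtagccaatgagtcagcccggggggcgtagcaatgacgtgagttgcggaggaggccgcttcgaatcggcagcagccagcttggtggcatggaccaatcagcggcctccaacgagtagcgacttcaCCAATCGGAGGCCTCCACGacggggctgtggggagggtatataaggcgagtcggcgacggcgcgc
The first capital lies 104 bases before the start in Hspa1a and 65 bases before it in Hspa5.

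Levels below are mean corrected counts per cell, that is, transcript counts after the authors' correction for depth, averaged over the cells of a library. The reads came from the 3′ end, so that a transcript gives about the same number of counts whatever its length. The 4 culture libraries held 4846 to 5389 cells each, with medians of 18350 to 19469 corrected counts per cell, and the 4 tumor libraries held 2318 to 3180 cells with medians of 7651 to 8266. Because the 2 tables were corrected separately, levels in culture and tumor are set side by side and were not tested against each other. Macrophage markers were present in every library, all 8 of them above 0.01, with a summed level of 282 to 293 in B-MF, 590 to 600 in Mo-MF and 14.5 to 33.8 in the tumor. Macrophage- or monocyte-like clusters held 99.1% and 99.5% of B-MF cells and 84.5% and 86.0% of Mo-MF cells. Neutrophil-like clusters held 10.3% and 9.54% of Mo-MF cells and at most 0.0573% of a B-MF library. In the tumor libraries 2, 3, 4 and 5, which were sorted as macrophages, neutrophil-like clusters held 35.1%, 62.3%, 46.4% and 54.5% of cells. Any 2 libraries shared at most 14 cell barcodes.

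GRP94, BiP and the 5 member ER lectins and disulfide isomerases that could be tested were higher in B-MF than in Mo-MF. Most ER J proteins and most cytosolic members did not pass. The comparison asks how macrophages of B-cell origin differ from those of monocyte origin in the same medium. Of the 64 members with a mean level of at least 0.1, 24 were higher in B-MF at an adjusted p under 0.05 (limma on log2 of the library mean plus 0.1, 2 libraries against 2, Benjamini-Hochberg over 8633 genes), 3 were lower and 37 did not pass. Of these 8633 genes, 22.6% were higher and 16.9% lower by the same rule (39.5% in either direction), and their median log2 difference was 0.02. Among ER members 9 of 19 were higher and 0 lower, with a median log2 difference of 0.13. Among cytosolic members 11 of 28 were higher and 1 lower, with a median of 0.12. The 24 members below the minimum were not tested. With each library centred on the median of all genes, 34 members were higher and 7 lower, beside 31.8% and 26.1% of all genes (57.9% in either direction). In the macrophage- or monocyte-like cells alone, 18 members were higher and 6 lower, beside 1605 and 1692 of the 8633 genes. Of these members 9 higher and 1 lower belonged to the ER, and 7 higher and 2 lower to the cytosol.

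**Figure D1:**
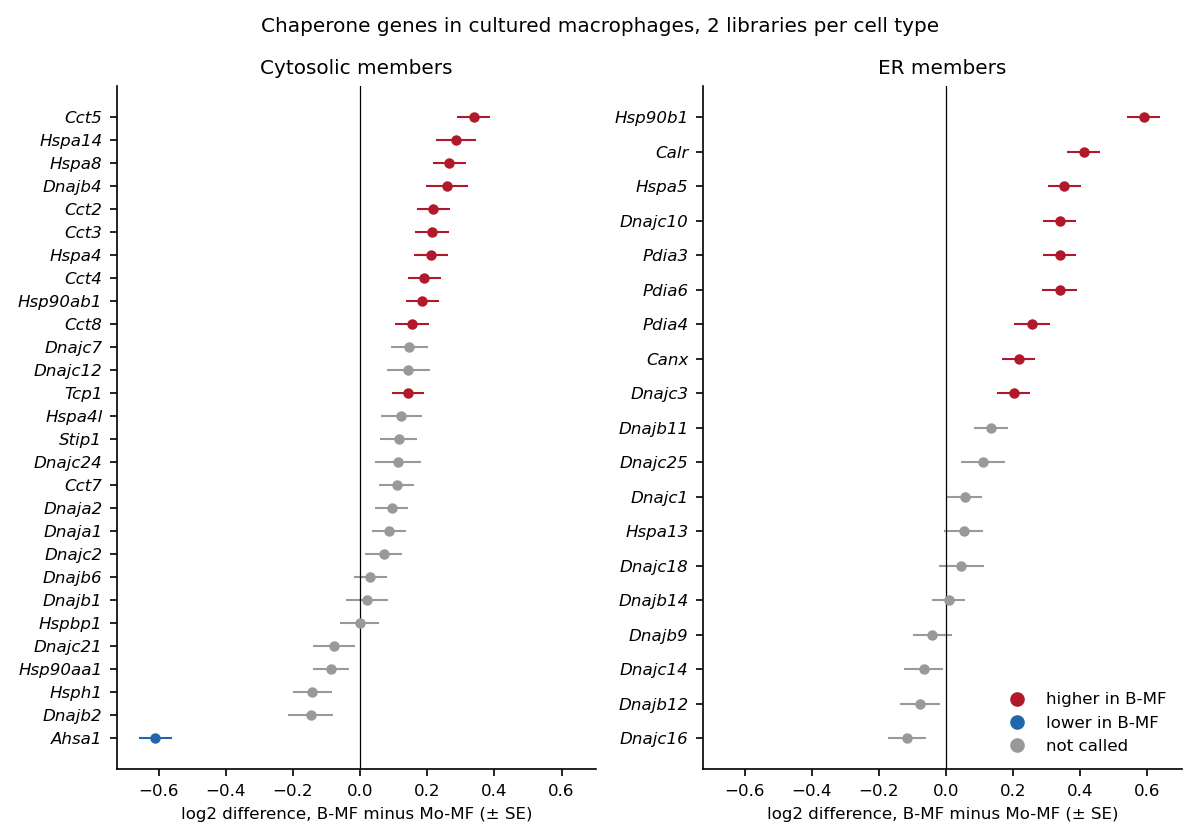
Log2 level in B-MF minus that in Mo-MF (x axis, each the mean of 2 libraries, bars are the limma SE) for the 28 cytosolic and 19 ER members tested. Hsp90b1 stands highest at 0.59, Ahsa1 lowest at -0.61, and 9 ER members pass the test, of which Dnajc10 and Dnajc3 are J proteins.

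Hsp90b1, the ER form of Hsp90, was measured at 15.6 and 15.8 in B-MF, against 10.3 and 10.5 in Mo-MF. Both B-MF libraries lay above both Mo-MF libraries, 1.5-fold on the scale of the level plus 0.1, with a log2 difference of 0.59 (SE 0.050, limma adjusted p = 4.61e-05). Calr, the soluble lectin chaperone and calcium store of the ER, stood at 18.6 and 18.5 against 13.9 and 14.0, a log2 difference of 0.41 (SE 0.049, limma adjusted p = 0.000339). Hspa5, the ER Hsp70, stood at 14.1 and 14.1 against 10.996 and 11.056, a difference of 0.35 (SE 0.049, limma adjusted p = 0.000778). None of these 3 genes overlapped between the cell types, and in the macrophage- or monocyte-like cells alone their log2 differences were 0.52, 0.35 and 0.30.

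Of the member lectins and disulfide isomerases, 5 of 5 tested were higher in B-MF (median log2 difference 0.34). Pdia3, which works with calreticulin and calnexin on glycoproteins, had levels of 7.15 and 7.03 in B-MF, against 5.64 and 5.54 in Mo-MF (difference 0.34). Pdia6 had levels of 4.91 and 4.72 against 3.78 and 3.79, also a difference of 0.34. Canx, the membrane-bound partner of calreticulin, stood at 4.07 and 4.12 against 3.525 and 3.499, a difference of 0.22. Pdia4 was lower in level, 0.969 and 0.909 against 0.781 and 0.759, with a difference of 0.26. Every library of B-MF lay above every library of Mo-MF for these 4 genes as well. With 2 libraries against 2 such a gap says little, since members that did not pass, such as Dnajb6 and Dnajc8 (0.03 each), showed it too. The share of all genes with it was not counted. P4hb, a major ER disulfide isomerase that the symbol rule leaves out, went the other way, with 3.17 and 3.24 against 3.92 and 3.74, and fell by 0.25 on the log2 scale (limma adjusted p = 0.00616).

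The ER J proteins, only some of which bring clients and ATP hydrolysis to BiP, were less uniform. Of 11 tested, 2 were higher, with a median log2 difference of 0.05. Dnajc10, a J protein that also reduces disulfide bonds, had a level of 0.844 in both B-MF libraries and 0.646 and 0.648 in Mo-MF, a difference of 0.34. Dnajc3, an inhibitor of PERK, stood at 1.62 and 1.60 against 1.37 and 1.41, a difference of 0.20. Dnajb11, which assists BiP on immunoglobulin chains, had a difference of 0.13 that did not pass (limma adjusted p = 0.0719). Dnajb9, a target of XBP1, had levels of 0.382 and 0.348 against 0.367 and 0.389, and the groups overlapped. Xbp1 itself passed with levels of 1.60 and 1.54 against 1.37 and 1.33, a difference of 0.21. The tags do not show whether its mRNA was in the spliced, active form.

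The promoter elements are set beside the calls here, and few cytosolic members with an element could be tested. All 6 genes whose elements are printed above, Hspa5, Hsp90b1, Calr, Canx, Pdia6 and Dnajc3, were higher, with a median log2 difference of 0.35. Of the 11 other ER members that were tested and had a promoter window, 3 were higher, Pdia3, Pdia4 and Dnajc10, and the median was 0.06. Over all genes 22.6% were higher. After centring, all 6 genes with an element stayed higher, and 5 of these 11 were higher and 1 lower, beside 31.8% and 26.1% of all genes. Abundance moved with the element, since the 6 genes had levels of 1.60 to 18.6 in B-MF and the 11 others 0.122 to 7.15, and no test of this split was made. Among cytosolic members with a window, 1 of 4 with a heat shock element was higher, with a median of 0.06, and 7 of 18 without one, with a median of 0.12. This split leaves out Hspa8, Hsp90ab1, Hsp90aa1 and Cct4, which had no window. Of these, Hsp90aa1 did not pass and the others were higher in B-MF. After centring, 1 of the 4 was higher and 1 lower, and 12 of the 18 were higher and 2 lower. In the tumor comparison described below, where 69.9% of all genes were higher in macrophage- or monocyte-like cells, 4 of 6 cytosolic members with this element were higher and 1 lower, and 12 of 17 without it were higher and 3 lower. After centring these were 4 and 2, and 10 and 5. Of the ER members there, 6 of 6 with the ER stress element were higher, and 8 of 9 without it, with 1 lower. After centring, 5 with it were higher and 1 lower, and 7 without it were higher and 2 lower.

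**Figure D2:**
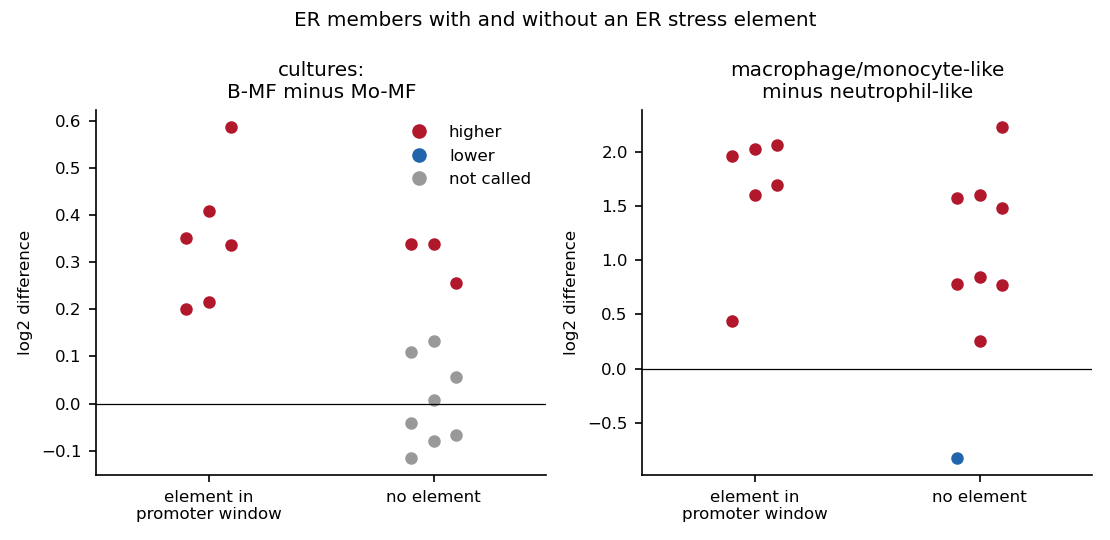
Log2 differences (y axis) of the ER members tested that had a promoter window, divided by whether the window held an ER stress element. In the cultures (left) 6 of 6 with an element and 3 of 11 without were higher in B-MF, beside 22.6% of all genes. In the tumor (right) 6 of 6 and 8 of 9 were higher in macrophage/monocyte-like cells, beside 69.9% of all genes, on a scale where the median of all genes was 0.57.

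Genes of the ER stress response outside the rule did not move as 1 group. Of 24 tested, 9 were higher in B-MF and 4 lower, beside 22.6% and 16.9% of all genes. The median log2 difference of the 24 was 0.07. Sdf2l1, a BiP cofactor, was higher by 0.44, while Ero1l, the oxidase that feeds the disulfide isomerases, fell by 0.51 and Edem1, which draws misfolded glycoproteins to degradation, fell by 0.43. Of 6 genes of the PERK-ATF4 arm 1 was higher and 3 lower. Ddit3, encoding CHOP, had levels of 0.566 and 0.542 in B-MF, against 1.66 and 1.68 in Mo-MF, and fell by 1.44 on the log2 scale. Atf4 fell by 0.28, and Ppp1r15a, which lets translation resume, was higher by 0.38.

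Among cytosolic members the TRiC subunits were higher most often, in 6 of 7 tested, with a median log2 difference of 0.19. Cct5 had levels of 2.15 and 2.13 in B-MF, against 1.66 and 1.68 in Mo-MF, a difference of 0.34 (limma adjusted p = 0.000995). The differences of Cct2, Cct3, Cct4, Cct8 and Tcp1 were 0.22, 0.21, 0.19, 0.15 and 0.14, the last with a limma adjusted p = 0.0498. That of Cct7 was 0.11 (limma adjusted p = 0.13). The 7 subunits, which the ring holds in equal number, had levels of 1.45 to 2.20 in B-MF. In macrophage- or monocyte-like cells alone 4 of the 7 passed, and Tcp1 was not among them (limma adjusted p = 0.15).

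The constitutive Hsp70 and Hsp90 were modestly higher in B-MF. Hspa8, the most abundant member, stood at 27.0 and 27.4 in B-MF against 22.4 and 22.8 in Mo-MF, and differed by 0.27 on the log2 scale. Hsp90ab1 had 19.6 and 20.1 against 17.3 and 17.5, a difference of 0.19, which did not pass in macrophage- or monocyte-like cells alone (0.13, limma adjusted p = 0.0769). Hspa4, a nucleotide exchange factor for Hsp70, differed by 0.21, Hspa14, an Hsp70 of the ribosome, by 0.29, and the J protein Dnajb4 by 0.26, all higher in B-MF.

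Heat-inducible members did not pass or were too low to test. Hsp90aa1 had levels of 4.65 and 4.63 in B-MF, below the 4.78 and 5.09 in Mo-MF, but its log2 difference of -0.09 did not pass. Hsph1, the Hsp110 that recycles Hsp70, had 0.395 and 0.360 against 0.414 and 0.438 and did not pass either (limma adjusted p = 0.0884), but in macrophage- or monocyte-like cells alone it was lower in B-MF by 0.26 (limma adjusted p = 0.00816). Dnajb1, Dnaja1 and Stip1, the adaptor between Hsp70 and Hsp90, did not pass, with differences of 0.02, 0.09 and 0.12. Hspa1a lay at 0.0214 to 0.0435, Hspb1 at 0.00454 to 0.00936 and Hspa1b at 0.00713 to 0.00936 over the 4 libraries, all below the minimum for testing. Hsf1 was at 0.263 to 0.291 in both cell types (difference 0.03). Of 14 heat shock response genes outside the rule, 7 were higher in B-MF and 1 lower, beside 22.6% and 16.9% of all genes. Among these 14 were Fkbp4 (0.27), a partner of Hsp90, St13 (0.25), and Cryab, a small heat shock protein, which fell by 0.26.

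Ahsa1, which stimulates the ATPase of Hsp90, went the other way. Its levels were 1.72 and 1.73 in B-MF, against 2.67 and 2.70 in Mo-MF, so that it was 1.53-fold lower in B-MF on that scale, and it fell by 0.61 on the log2 scale (SE 0.049, limma adjusted p = 3.46e-05). It was the cytosolic member furthest from 0 in either direction. The clusters showed where this level lay. Mo-MF cluster 0, led by Bex1, Arg1 and Fn1, had Ahsa1 at 1.74 to 1.79, but Mo-MF cluster 3, led by Ly6a, Tmem171 and S100a4, had it at 5.32 to 5.44. In the cycling cluster 4, which holds both cell types, Ahsa1 was at 2.62 to 2.91 for B-MF, against 5.68 to 5.84 for Mo-MF. The main B-MF clusters 1 and 2 had 1.96 to 2.06 and 1.23 to 1.32. Hsp90aa1 was also raised in cycling cells, at 9.20 to 9.93 in B-MF and 10.8 to 11.7 in Mo-MF of cluster 4, against 3.94 to 4.53 in clusters 0, 1 and 2. Hsp90b1 kept its order within cluster 4, with 17.5 to 18.1 in B-MF and 12.7 to 13.4 in Mo-MF. These cluster values are descriptions without a test.

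The other members changed little. Of 9 mitochondrial members 2 were higher in B-MF, the J proteins Dnajc19 (0.21) and Dnajc4 (0.15). The matrix chaperones Hspd1, Hspe1 and Hspa9 did not pass, with differences of 0.08, -0.04 and -0.10. Of the 6 remaining members tested, Hspb11 was higher by 0.21, and Dnajc5, a J protein of secretory vesicles, and Dnajc17 fell by 0.20 and 0.19. Mitochondrially encoded transcripts made up 7.92% and 7.70% of counts in B-MF but 5.07% and 5.24% in Mo-MF. Beside the 22.6% of all genes that were higher, these transcripts were so in 13 of 13 cases. Immediate-early genes were higher in 11 of 14 and proliferation genes in 5 of 12 (1 lower). Their part in the chaperone differences was not tested.

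With only 2 libraries per cell type the number of members passing moved with single libraries. It was 29 higher and 11 lower without B-MF replicate 1, 40 and 3 without B-MF replicate 2, 10 and 1 without Mo-MF replicate 1, and 9 and 1 without Mo-MF replicate 2, the remaining library being assumed to vary like the others. The calls over all 8633 genes moved as well, to 2271 higher and 2933 lower, 3858 and 1640, 1129 and 913, and 1103 and 1055 in the same order, from 1955 and 1458 with all libraries. Of the 27 that passed, 8 did so without each library and under every other setting tried, namely Hsp90b1, Calr, Hspa5, Pdia3, Pdia6, Dnajc10, Cct5 and, lower in B-MF, Ahsa1. Hspa14 passed wherever it was tested, but was below the alternative minimum mean of 0.5. The share of all called genes that kept their call in this way was not counted.

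Summed over the class, ER chaperones separated the cell types more than cytosolic ones. The sums weigh abundant members most, and Calr, Hsp90b1 and Hspa5 were the most abundant in the ER. Member by member the classes were close, with median log2 differences of 0.13 in the ER, where 10 of 19 did not pass, and 0.12 in the cytosol. The 20 ER members reached a total of 74.2 and 73.7 in B-MF, against 57.0 and 57.2 in Mo-MF. The 43 cytosolic members reached 83.1 in each B-MF library, against 74.0 and 75.0 in Mo-MF. The ratio of the ER to the cytosolic sum stood at 0.893 and 0.887 in B-MF, against 0.770 and 0.763 in Mo-MF, without overlap. On the log2 scale the B-MF sum exceeded the Mo-MF sum by 0.374 in the ER and 0.157 in the cytosol, and by 0.316 and 0.112 in macrophage- or monocyte-like cells alone. The neutrophil-like cells of the Mo-MF cultures had lower sums, 57.4 and 57.6 in the cytosol and 39.2 and 41.8 in the ER. Within Mo-MF, cluster 0 had ER sums of 56.5 and 56.8, and cluster 3 had 70.4 and 71.5, beside 69.9 and 70.4 in B-MF cluster 2 but 79.3 and 80.0 in B-MF cluster 1. In cluster 4, which holds both cell types, ER sums were 75.1 and 76.2 for B-MF, against 64.5 and 64.6 for Mo-MF. In cluster 6, also shared, they were 53.2 and 59.2 against 45.1 and 46.5. The unnamed cluster 7 went the other way, with 47.9 in 27 cells of B-MF replicate 1 against 50.3 and 48.4. Cytosolic sums in cluster 4 were lower in B-MF, at 108 and 103 against 110 and 113. The mitochondrial members summed to 13.8 to 14.3 in all 4 libraries.

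**Figure D3:**
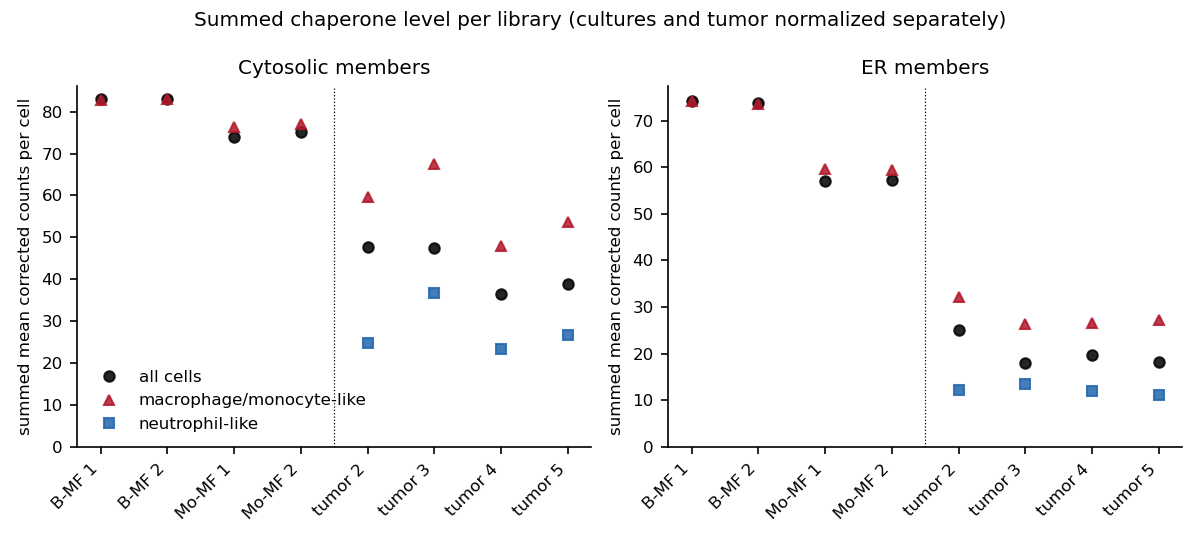
Summed mean corrected counts per cell (y axis, from 0) of cytosolic and ER members in each library, over all cells and within the 2 main cell classes. ER sums are 73.7 to 74.2 in B-MF, 57.0 to 57.2 in Mo-MF and 18.02 to 25.1 in the tumor, where macrophage/monocyte-like cells lie above neutrophil-like cells in every library.

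TAM libraries differed from the cultures in which chaperones they held, but 35.1% to 62.3% of their cells were neutrophil-like. Over all cells, their cytosolic sums were 47.6, 47.5, 36.4 and 38.7 in libraries 2, 3, 4 and 5, and their ER sums were 25.1, 18.02, 19.6 and 18.1, so that the ER to cytosol ratio was 0.527, 0.380, 0.539 and 0.467. Both sums lay below those of the cultures, as did the counts per cell of the whole table. Per 10000 corrected counts, the cytosolic members made up 58.8, 60.3, 45.9 and 48.7 in the tumor, above the 38.9 to 44.5 of the cultures, and the ER members 31.0, 22.9, 24.7 and 22.7, against 38.9 and 39.4 for the B-MF libraries and 29.97 and 30.2 for those of Mo-MF. In macrophage- or monocyte-like tumor cells alone the sums were 47.9 to 67.4 and 26.4 to 32.1, also below the cultures, and the shares 57.5 to 80.2 and 31.5 to 38.4 per 10000. Against this, Hspa1a was at 1.99, 3.20, 1.09 and 1.37 and Hspa1b at 1.82, 3.65, 1.11 and 1.25, where every culture library had less than 0.05 of either. Their sum over the Hspa8 level was 0.286 to 0.775 in the tumor, 0.292 to 0.681 in its macrophage- or monocyte-like cells and 0.001 to 0.0023 in culture. Hsp90aa1 was at 8.41, 11.7, 6.63 and 8.35, above its 4.63 to 5.09 in culture, as were the 6.56 to 11.1 of macrophage- or monocyte-like cells. The ratio of inducible Hsp90aa1 to constitutive Hsp90ab1 was 0.926, 2.01, 1.04 and 1.27 over all tumor cells and 0.231 to 0.291 in culture. It was lower, 0.691 to 0.995, in macrophage- or monocyte-like tumor cells, and 2.91 to 4.98 in the neutrophil-like cells. Dnajb1 was at 0.540 to 0.988 over all tumor cells, but at 0.444 to 0.890 in the macrophage- or monocyte-like ones, where library 4 lay within the 0.418 to 0.476 of the cultures. Dnajb9 was at 0.8291 to 1.19 over all cells and 0.564 to 0.721 in those cells, beside 0.348 to 0.389 in culture. The tumors were cut up and digested with enzymes before sorting while the cultures were lifted in cold buffer, and the effect of handling on these genes cannot be told apart from that of the tumor.

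Over all cells, 2 orders of the tumor libraries were the most frequent, and 18 of 57 members followed neither, Hspa5, Hspa8 and Hsp90ab1 among them. Hspa1a, Hspa1b, Hsp90aa1, Dnajb1, Dnaja1 and Dnajb9 were among the 7 members highest in library 3, followed by 2, 5 and 4. Calr, Canx, Pdia3, Pdia4, Pdia6, Hsp90b1 and the TRiC subunits were among the 32 highest in library 2, followed by 4, 5 and 3. The second order was that of the share of macrophage- or monocyte-like cells, 62.1%, 47.1%, 39.6% and 33.7% in libraries 2, 4, 5 and 3. Library 2 was highest for 13 of 16 ER members and 18 of 28 cytosolic members over all cells, beside 53.5% of all genes. Within macrophage- or monocyte-like cells Hspa1a, Hspa1b, Hsp90aa1, Dnajb1 and Dnaja1 kept the first order, with Hspa1a at 2.86, 5.26, 1.80 and 2.46 and Dnajb1 at 0.606, 0.890, 0.444 and 0.529 in libraries 2 to 5, and Dnajb9 was lowest in library 5. Within neutrophil-like cells all 6 genes were highest in library 3, as were 41.0% of all genes there, but the order of the others held for Dnajb1 and Dnajb9 only. The largest spread over all cells was that of Hspa1b, 3.11-fold between the highest and the lowest library after 0.1 was added to each level, followed by Hspa1a with 2.78-fold, and Hspa8 varied by 1.36-fold on the same scale.

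Macrophage- or monocyte-like TAM had higher chaperone levels than neutrophil-like cells of the same library for most members, with the greatest differences for Hspe1, Pdia3 and Hsp90ab1. The comparison asks which of the cells in the sort carry the chaperones. The classes came from clusters made without the member genes but from the same cells. Of 56 members tested, 27 of the 83 measured being below the minimum, 45 were higher in macrophage- or monocyte-like cells at an adjusted p under 0.05 (limma with the library as a block, Benjamini-Hochberg over 5831 genes), 7 were lower and 4 did not pass. Most genes did the same, with 69.9% of all 5831 higher and 19.4% lower (89.3% in either direction), and the median log2 difference of all genes was 0.57. With each sample centred on the median of its own genes, which lowered every difference by 0.61, 36 members were higher and 16 lower, beside 40.3% and 45.9% of all genes (86.2% in either direction). Differences are given as measured, so that a value under 0.57 lies below the middle of all genes and one under 0.61 is negative after centring. As a share of all corrected counts the members were also higher in macrophage- or monocyte-like cells, with 57.5 to 80.2 per 10000 for the cytosol and 31.5 to 38.4 for the ER, against 31.1 to 48.3 and 14.5 to 17.7 in neutrophil-like cells. Scaled to 10000 counts per cell, 47 members were higher and 8 lower, beside 4186 and 1423 of 6329 genes. Counts corrected for depth do not give the RNA content of a cell.

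**Figure D4:**
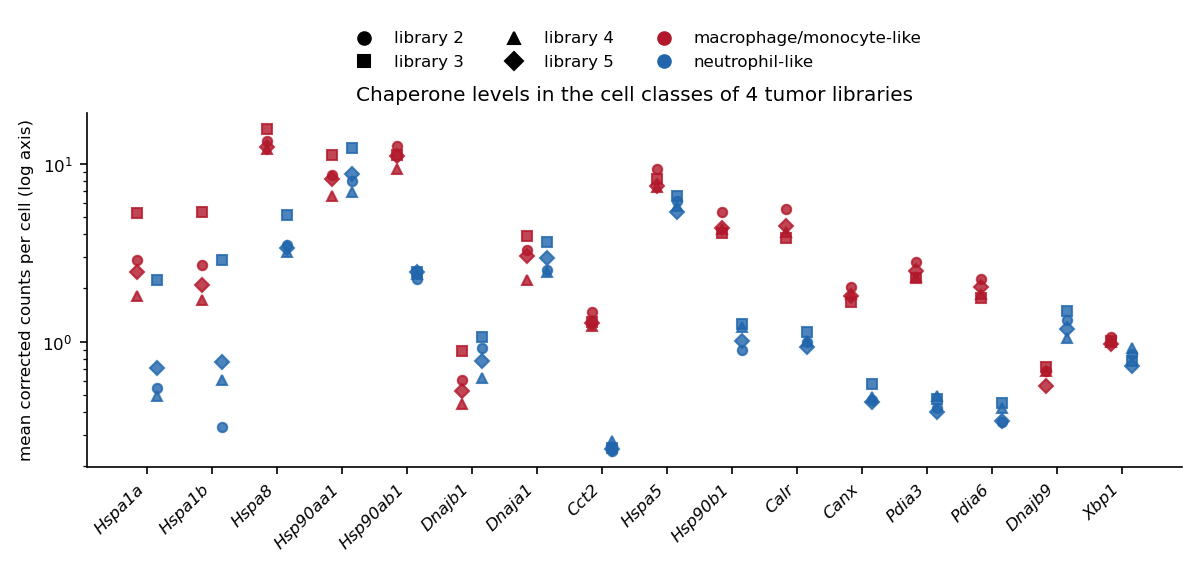
Mean corrected counts per cell (y axis, log scale) of 16 members in macrophage/monocyte-like (red) and neutrophil-like (blue) cells of the 4 tumor libraries, marked by symbol. Pdia3, Calr and Cct2 are far apart, Hsp90aa1 and Dnaja1 overlap, and Dnajb9 is higher in neutrophil-like cells of every library.

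In the ER 14 of 16 members were higher and 2 lower, beside 69.9% and 19.4% of all genes, with a median log2 difference of 1.53 for the 16. After centring 12 were higher and 4 lower, beside 40.3% and 45.9% of all genes. Pdia3 had levels of 2.82, 2.28, 2.30 and 2.48 in macrophage- or monocyte-like cells of libraries 2, 3, 4 and 5 and 0.425, 0.475, 0.493 and 0.400 in neutrophil-like cells. The lowest of the former was far above the highest of the latter, with a log2 difference of 2.23, or 4.69-fold on the scale of the level plus 0.1 (SE 0.080, limma adjusted p = 1.55e-10). Calr had 5.54, 3.84, 4.11 and 4.47 against 1.0, 1.13, 1.01 and 0.930, a difference of 2.03. Pdia6, Hsp90b1, Canx and Pdia4 differed by 2.06, 1.96, 1.70 and 1.58. Dnajc3 and Dnajb11 differed by 1.60 and 1.484, and the less abundant Dnajb14, Dnajc1 and Dnajb12 by 1.60, 0.84 and 0.78.

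BiP was 1 of 4 ER members that were lower in macrophage- or monocyte-like cells after centring, with Dnajc14, Dnajb9 and Hspa13. Hspa5 had 9.29, 8.25, 7.42 and 7.48 in macrophage- or monocyte-like cells and 6.18, 6.55, 5.76 and 5.33 in neutrophil-like cells. The classes did not overlap, and the log2 difference was 0.44, but after centring it was -0.18 and passed in the opposite direction (limma adjusted p = 0.0129). The ratio of Hspa5 to Hsp90b1 was 1.71 to 2.03 in macrophage- or monocyte-like cells and 4.77 to 6.93 in neutrophil-like cells, without overlap. In the cultures it was 0.891 to 1.07. Dnajc14, an ER J protein, had a difference of 0.26 as measured and -0.36 after centring, Xbp1 one of 0.27 and -0.34, and P4hb one of 0.15 and -0.46. Dnajb9 was higher in neutrophil-like cells, with 1.32, 1.484, 1.05 and 1.18 against 0.687, 0.721, 0.683 and 0.564, a difference of -0.83 (SE 0.073, limma adjusted p = 3.73e-07). Hspa13, the other member lower in macrophage- or monocyte-like cells, differed by -0.17.

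Genes of the unfolded protein response outside the rule were divided between the classes. Of 22 ER stress genes tested, 19 were higher and 2 lower in macrophage- or monocyte-like cells, beside 69.9% and 19.4% of all genes. After centring 15 were higher and 5 lower, beside 40.3% and 45.9%. As measured, Sdf2l1, the secreted factor Manf and the translocon subunit Sec61b differed by 2.07, 1.82 and 1.60. Of 7 genes of the PERK-ATF4 arm 2 were higher and 5 lower (0 and 5 after centring). Ddit3 had 0.335, 0.385, 0.310 and 0.263 in macrophage- or monocyte-like cells and 1.30, 1.71, 0.923 and 1.14 in neutrophil-like cells, a difference of -1.67. Ppp1r15a and Sesn2 differed by -1.34 and -0.95.

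In the cytosol 20 of 28 members were higher, 4 lower and 4 did not pass, close to the 69.9% higher and 19.4% lower of all genes. The median log2 difference of the 28 was 1.06. After centring 18 were higher and 8 lower, beside 40.3% and 45.9% of all genes. All 7 TRiC subunits tested were higher, with differences of 1.43 for Cct8 to 1.99 for Cct2 and a median of 1.78. Cct2 had 1.47, 1.29, 1.22 and 1.27 against 0.243, 0.251, 0.276 and 0.248. Hspa8 had 13.4, 15.6, 12.1 and 12.5 against 3.51, 5.14, 3.20 and 3.35, a difference of 1.81. Hsp90ab1 had 12.6, 11.2, 9.38 and 11.1 against 2.25, 2.48, 2.39 and 2.46, a difference of 2.15. Neither gene overlapped between the classes. Hspa4, Dnajb4, Dnajc2 and Stip1 differed by 1.09, 1.02, 1.20 and 0.98.

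The inducible Hsp90 stood apart from the constitutive form. Hsp90aa1 had 8.68, 11.1, 6.56 and 8.19 in macrophage- or monocyte-like cells and 8.01, 12.3, 6.94 and 8.76 in neutrophil-like cells. The classes overlapped, and the log2 difference was -0.05 (limma adjusted p = 0.44, and -0.67 after centring, where it passed). The ratio of Hsp90aa1 to Hsp90ab1 was therefore 0.691 to 0.995 in the former and 2.91 to 4.98 in the latter. Ahsa1 and Dnaja1 did not pass with differences of 0.05 and 0.09, and Hspa14 did not pass with 0.13. After centring these 3 were lower. Dnajb1 had 0.606, 0.890, 0.444 and 0.529 against 0.926, 1.07, 0.626 and 0.782, higher in the neutrophil-like cells of every library though the classes overlapped, a difference of -0.42 (SE 0.064, limma adjusted p = 5.34e-05). Hspa4l, a relative of Hsp110, differed by -0.86, Dnajb6 by -0.20 and Dnajb2 by -0.13.

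The inducible Hsp70 genes were higher in macrophage- or monocyte-like cells and varied most between libraries. Hspa1a had 2.86, 5.26, 1.80 and 2.46 against 0.546, 2.22, 0.494 and 0.711 in libraries 2 to 5. Macrophage- or monocyte-like cells were higher in each of the 4 libraries, with a difference of 1.68 (SE 0.12, limma adjusted p = 4.51e-08), although the neutrophil-like cells of library 3 lay above the macrophage- or monocyte-like cells of library 4. Hspa1b showed the same pattern with a difference of 1.56 (SE 0.21, limma adjusted p = 1.91e-05). Hsph1 differed by 1.79. Hspb1 was at 0.0698 to 0.210 against 0.000896 to 0.0111 and was below the minimum for testing, as was Hsf1 at 0.0781 to 0.0926 against 0.0179 to 0.0367. Of 12 heat shock response genes outside the rule, 10 were higher and 1 lower (6 and 2 after centring), beside the 69.9% and 19.4% of all genes, led by the Hsp70 cofactor Bag3 (1.78) and the Hsp90 partners Chordc1 (1.64) and Cacybp (1.45). Mitochondrially encoded transcripts, higher in 13 of 13, and proliferation genes, higher in 6 of 6 (5 after centring), moved with these differences, and their part was not tested. Immediate-early genes were divided, with 5 of 14 higher and 7 lower (3 and 10 after centring).

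Levels of the inducible members differed between clusters. Hspa1a was at 3.84 to 9.60 in the macrophage- or monocyte-like cluster 1, led by Sdc1, Arg1 and Inhba, and at 0.180 to 2.10 in clusters 3, 4 and 6. Among neutrophil-like clusters it was at 0.967 to 3.81 in cluster 0, led by Ccdc126, Ciart and Ddit3, and at 0.0605 to 0.697 in clusters 2, 5 and 7. In T/NK-like cells it was at 0.0385 to 0.0769 in the 2 libraries with at least 20 such cells, the fewest for which a level is given, in B-like cells at most 0.385 and in dendritic-like cells 0.455 to 3.25, and the part of free RNA in these levels was not tested. Hspa1b was at 3.78 to 9.51 in cluster 1, 0.563 to 4.997 in cluster 0 and at most 2.67 in the other 6 clusters of these classes. Hsp90aa1 was at 9.02 to 16.9 in cluster 1, 10.9 to 18.3 in cluster 0 and 1.62 to 9.53 in the other 6, so that cluster 1 overlapped with these. Hsph1 was at 0.421 to 1.06 in cluster 1 and at most 0.495 elsewhere in these classes, and Dnajb1, at 0.783 to 1.32 in cluster 0 and 0.597 to 1.25 in cluster 1, overlapped with the 0.330 to 0.840 of the others. Dnajb9 was at 1.72 to 2.05 in cluster 0, above every other cluster shown. In both leading clusters library 3 was highest for Hspa1a and Hsp90aa1. These values describe clusters of the same cells and were not tested.

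**Figure D5:**
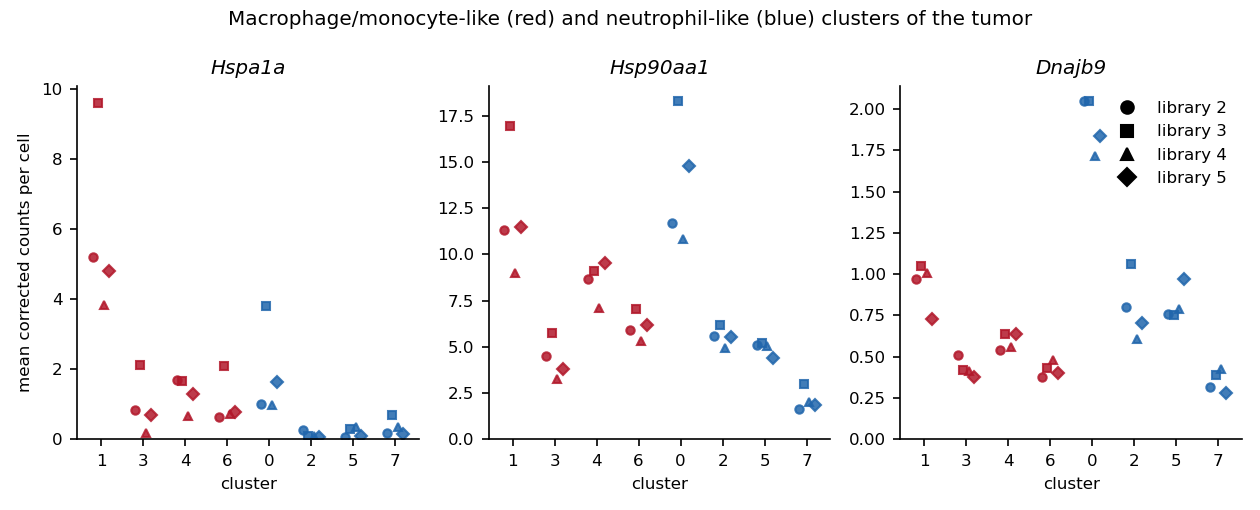
Mean corrected counts per cell (y axes, from 0) of Hspa1a, Hsp90aa1 and Dnajb9 in the 8 main tumor clusters, each symbol 1 library. Hspa1a is highest in cluster 1 and Dnajb9 in cluster 0, and library 3 (squares) leads in both for Hspa1a and Hsp90aa1.

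Of the mitochondrial members tested, 7 of 7 were higher in macrophage- or monocyte-like cells, beside 69.9% of all genes, and after centring 4 were higher and 1 lower. Hspe1 had 2.25, 1.85, 1.66 and 1.64 against 0.289, 0.251, 0.245 and 0.251, and its difference of 2.43 was the greatest of the 56 members tested. Hspd1, its partner in the folding chamber, differed by 2.03, Dnajc19 by 1.66, Dnajc15 by 1.49, Hspa9 by 0.76, Dnajc4 by 0.71 and Dnajc30 by 0.42, the last at -0.19 after centring. Among the remaining members Hspb11 and Dnajc13 differed by 1.34 and 0.87, and Dnajc5 by -0.43. Leaving out each tumor library in turn left 45 members higher and 5 to 6 lower.

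Chaperone promoters lay in accessible chromatin in the B-cell precursors about as often as those of all genes. Hspa8, Hsp90aa1 and Hsp90ab1 had no window and are not in these counts. By ATAC-seq, which cuts accessible DNA, a peak overlapped the window around the start in all 12 ATAC-seq libraries for 53 of 73 members (72.6%), beside 67.8% of all 12067 genes. The classes did not stand apart, with 26 of 36 cytosolic members and 13 of 18 ER members (72.2% each). Fold enrichment over background, the peak height, was 22.6 to 26.8 at Calr, 24.1 to 29.96 at Pdia6, 17.8 to 26.9 at Xbp1 and 10.1 to 23.0 at Hspa1a, whose level in the cultures was below 0.05. The Hspa1a window is nearly identical to that of Hspa1b, and the effect of this on its peak height was not tested. No peak was listed in any library for 13 members, among them Hspa5, Hsp90b1, Dnajb9, Ahsa1, Cct3, Cct7 and Stip1. The lists leave out blacklisted regions, and whether these windows lie in one was not tested. Within 1000 bases on each side, 57 of 73 members (78.1%) had a peak in all 12 libraries, beside 72.2% of all genes, and every ER member had one in at least 1. Dnaja4 and Dnajc6 had a peak in each of the 6 BM libraries and in none from spleen, and Pdia5 in 2 of 3 BM CSF1R+ libraries and none of the others. A peak in some but not all libraries was found for 7 of 73 members, beside 1514 of 12067 genes. How many genes showed these same patterns was not counted. These peak counts were not tested.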

How the data were processed

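Samples were grouped by their labels. For scRNA-seq, the authors counted 3′ transcript tags with Cell Ranger, kept cells with at least 1000 detected genes, applied SCTransform, and deposited its corrected counts as the natural log of the count plus 1. Values above 0 came back as whole numbers within 0.001, except 7 of 21074130 in the tumor table, at most 0.00196 away, and were rounded. As these are not raw counts, count models were not fitted, and sequencing depth per library is unknown. For ATAC-seq, the authors aligned reads to mm10 with BWA, and MACS peaks were called library by library, with blacklisted regions left out. In the deposited lists a peak has its fold enrichment, a −log10 p-value and a −log10 q-value.

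Here corrected counts were averaged per library, a pseudocount of 0.1 was added, and log2 values were fitted with limma 3.58.1 (R 4.3.3) where a gene's mean reached 0.1. P-values were adjusted by Benjamini-Hochberg over all genes fitted. The tumor fit had the library as a block. Cells were clustered without the member genes (2000 variable genes, 30 principal components, 20 neighbours, Leiden at resolution 0.5, python-igraph 0.11.9, leidenalg 0.10.2, scikit-learn 1.9.0), and clusters were named from listed markers. No doublet caller was run, and the sources used here do not say that doublets were removed. Promoters ran from 250 bases before to 50 after the RefSeq start (GRCm38.p6), and a peak counted with an overlap of at least 1 base. Scripts used pandas 2.3.3, numpy 2.4.6 and matplotlib 3.10.9 in Python 3.11.15.

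Members and lists were chosen with earlier results of these data known. Named members were the main genes of each class and, per comparison and class, the 3 further genes with the greatest difference among those that passed without overlap. A few others are named to complete small groups, chosen after their values were seen. From the pathway lists outside the rule, the 3 greatest differences were named, with further genes of the PERK arm and P4hb also chosen after seeing the values. In simulated data, the culture fit of 8633 genes recovered 95% of 100 genes changed by a log2 of 1. Of 100 changed by 0.3 it recovered 29%, and the tumor fit of 5831 genes recovered 97% and 51%. The culture fit called 125 genes there, 1 of them falsely, and the tumor fit 158, 10 of them falsely. In the measured data 3413 and 5205 genes passed, and the share recovered with so many changed genes was not tested. Alternatives were other pseudocounts, minima, scalings, cluster choices, blocks and libraries left out. A marker of the sorted cells, and the summed level that includes it, is not reported here.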

Additional observations from a re-analysis of the deposited data

Results flagged for a closer look

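In each class of tumor cells, the 4 library levels of each member were examined for 1 library far from the other 3. Of 132 such values 14 stood out by Dixon's criterion, which flags about 1 in 20 by chance where values are independent. Members measured in the same libraries are not independent, and the share over all genes was not counted. The number therefore cannot show an excess over chance.

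In macrophage- or monocyte-like cells most of these were in library 2, which had the highest TRiC levels. Tcp1 was at 1.04 there (0.846 to 0.852 in the other libraries), Cct3 at 0.685 (0.473 to 0.496), Cct5 at 1.32 (1.10 to 1.13) and Cct8 at 1.15 (0.924 to 0.944). Stip1 was at 0.363 (0.291 to 0.297) and Dnajc2, a J protein of the ribosome, at 0.547 (0.441 to 0.456). The summed ER level was 32.1 (26.4 to 27.3), and Hspb11 was low at 0.238 (0.251 to 0.253). Hspa14 was low in library 5 at 0.284 (0.324 to 0.332), and Dnajc5 was high in library 3 at 0.994 (0.872 to 0.884).

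In neutrophil-like cells library 3 stood out for Hsp70 genes. Hspa1a was at 2.22 (0.494 to 0.711), Hspa1b at 2.89 (0.332 to 0.768) and the constitutive Hspa8 at 5.14 (3.20 to 3.51). Hspe1 was high in library 2 at 0.289 (0.245 to 0.251).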

How the results depend on the processing

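In the cultures no named member that passed the test changed direction under any alternative tried. Of those that did not pass, Hsf1 turned to -0.041 and Dnajb14 to -0.017 in macrophage or monocyte clusters, and Dnajb14 was at -0.00049 after centring and -0.0017 with means of ln values. Without 1 library in turn, Dnajb1 ran from -0.057 to 0.098 and passed at the latter, Dnajb9 from -0.094 to 0.012, Hsf1 from -0.021 to 0.085 and Dnajb14 from -0.013 to 0.028. The number of members lower in B-MF, 3 as reported, was 7 after centring, 6 in macrophage or monocyte clusters alone and 5 with the replicate number as a block. Without 1 library in turn, the number higher ran from 9 to 40 and the number lower from 1 to 11. Libraries with the same number in both cell types deviated together only weakly (r = 0.126 over 8633 genes). With 2 libraries per cell type, libraries of unlike number must give the same value with the sign reversed (-0.126). This correlation therefore cannot show whether the libraries were paired. The block gave 27 members higher.

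In the tumor, 25 members were higher and 5 lower at a minimum mean of 0.5, beside 1166 and 621 of the 1992 genes then tested. Fewer members reached this minimum, and the 28 named ones that did gave the same result. The number lower, 7 as reported, was 16 after centring on the median of all genes, a setting chosen after seeing the data, and 4 with means of the deposited ln values. Without 1 library in turn, 45 were higher each time and 5 to 6 lower. Centring turned 5 named members, Ahsa1 (-0.56), Dnaja1 (-0.52), Hspa5 (-0.18), Xbp1 (-0.34) and Hspa14 (-0.48), by removing a shift shared by most genes. Scaled to 10000 counts per cell, Ahsa1 was at -0.065 and Dnaja1 at -0.046, neither passing, and Ahsa1 ran from -0.017 to 0.099 without 1 library in turn. Without the library block 45 were higher and 5 lower.

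The log2 difference of the cytosolic sums, 0.157, was 0.107 without Hspa8 and 0.112 in macrophage or monocyte clusters. That of the ER sums, 0.374, was 0.381 as a share of all counts, 0.361 without Calr and 0.316 in those clusters. Apart from these, the cause of the changes was not tested.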

Other observations

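Outside the classes compared, the 27 cells of tumor library 2 in cluster 11 were left unnamed and were led by Ctsk, Mt3 and Acp5. Its ER members summed to 57.2 and its cytosolic members to 73.0, while Hspa1a was at 0.037. Dendritic-like cells had Hspa1a at 0.455 to 3.25 over the 4 tumor libraries, and B-like cells had at most 0.385 over 3 libraries.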
